A study of Mus musculus with 12 samples.

Results

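Interferon response genes were followed in Dunn and LM8 cells, a pair of mouse osteosarcoma lines, between early and late passages in culture. The group holds 44 genes, chosen by name as interferon receptors, transcription factors, RNA and DNA sensors and genes that interferon induces. Of these, 42 had a probe that matched the annotation, among 20144 matched genes in all, and the remaining 2, Mx1 and Mx2, had none. Dunn cells metastasise little, and the LM8 line, which metastasises readily, was obtained from them by selection in mice. The 4 groups were early Dunn cells (passage 25), late Dunn cells (passage 86), early LM8 cells (passage 24) and late LM8 cells (passage 91), each on 3 single-colour Agilent arrays. Late cells were grown from the early ones, no group received interferon or any other agent, and early and late cells had been frozen, thawed and grown on for some passages before RNA was taken. Each line at each passage is 1 culture history, and the labels describe the replicates of a condition as independent without saying more, so the p-values measure the spread between these samples.

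Interferons are secreted proteins that cells release when their sensors detect viral RNA or misplaced DNA. They bind receptors of 2 kinds, Ifnar1 with Ifnar2 for type I and Ifngr1 with Ifngr2 for type II interferon, and the signal passes through STAT proteins and Irf9 to short promoter elements of the induced genes. The products include enzymes and binding proteins that act on viral RNA, the ubiquitin-like protein Isg15 with the enzymes that attach and remove it, and large GTPases. Many cells, tumour cells included, keep a basal level of these transcripts without infection.

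The element that Irf proteins and the Irf9 complex bind has the core GAAANNGAAA, and matches to it were counted on both strands, as this sequence or TTTCNNTTTC, between 250 bases before and 50 bases after each start site of RefSeq on GRCm38.p6. Of 32851 promoters 3.44% held a match, and of 27025 genes 3.99% had a promoter with one. A promoter was given for 35 of the members, of which 15 (42.9%) held one, including 7 of the 12 members that were lower in late LM8 cells (58.3%) and 8 of the other 23 (34.8%). The following stretches belong to 5 members that were lower in late LM8 cells, with the matches in capitals.
Gbp3, chr3:142559979-142560034, + strand: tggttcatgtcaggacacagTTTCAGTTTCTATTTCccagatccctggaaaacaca
Isg15, chr4:156200855-156200916, - strand: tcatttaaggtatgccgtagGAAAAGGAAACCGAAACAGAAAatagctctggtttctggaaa
Oas1a, chr5:120907526-120907565, - strand: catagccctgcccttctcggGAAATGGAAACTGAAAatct
Igtp, chr11:58199502-58199551, + strand: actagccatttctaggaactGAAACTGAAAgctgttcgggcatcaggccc
Ifit3, chr19:34583353-34583436, + strand: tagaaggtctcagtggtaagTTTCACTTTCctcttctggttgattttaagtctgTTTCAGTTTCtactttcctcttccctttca
The next 3 stretches hold the same core and belong to members for which no difference was called between late and early LM8 cells.
Irgm1, chr11:48871421-48871470, - strand: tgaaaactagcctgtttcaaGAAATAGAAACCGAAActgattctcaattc
Bst2, chr8:71537567-71537622, - strand: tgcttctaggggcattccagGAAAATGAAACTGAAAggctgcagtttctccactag
Stat2, chr10:128270256-128270305, + strand: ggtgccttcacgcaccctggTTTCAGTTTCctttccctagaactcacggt
In Gbp3, Isg15, Oas1a, Bst2 and Irgm1 the matches overlapped each other, whereas Ifit3 held a separate pair. A match describes the letters of the window and is no measured binding site.

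Levels are given as the log2 of the processed signal relative to the 75th percentile of the array, so that a level of 0 equals that percentile and a difference of 1 is 2-fold. Levels of different genes come from different probes and were not set against each other. The 75th percentile itself rose from 379.1 to 734.7 intensity units in early Dunn cells to 1169 to 2015 in late LM8 cells, and the share of spots well above background from 39.12% to 50.22% in the former to 55.51% to 59.51% in the latter. Osteoblast markers, of which 8 of 9 were matched, were well above background on every array on which they were measured, whereas of 7 leukocyte markers 3 to 5 were above it per array, with Ptprc, the common leukocyte antigen, on 1 early and 1 late LM8 array. Itgam, Csf1r and Cd3e were above it on every array. The summed signal of the leukocyte markers, most of it from the brightest probe, that of Itgam, was 6.14 to 10.8 in early and 5.05 to 10.4 in late Dunn cells and 4.98 to 7.20 in early and 4.83 to 7.13 in late LM8 cells, as multiples of the 75th percentile. Replicate 1 of the late Dunn cells stood apart, with correlations of 0.919 and 0.923 with the other arrays of its group, which had 0.986 with each other. In bulk RNA, fewer cells that express a gene and less RNA per cell cannot be told apart.

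Of the 42 members, 23 were well above background on every array on which they were measured. A further 13 were so on all arrays of 1 to 3 groups, Rsad2 and Zbp1 were so on some arrays only, and Cmpk2, Gbp2, Oas3 and Tlr3 on none. The 4 receptors were all among the 23, as were Irf9, Stat2 and Irf3.

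**Figure D1:**
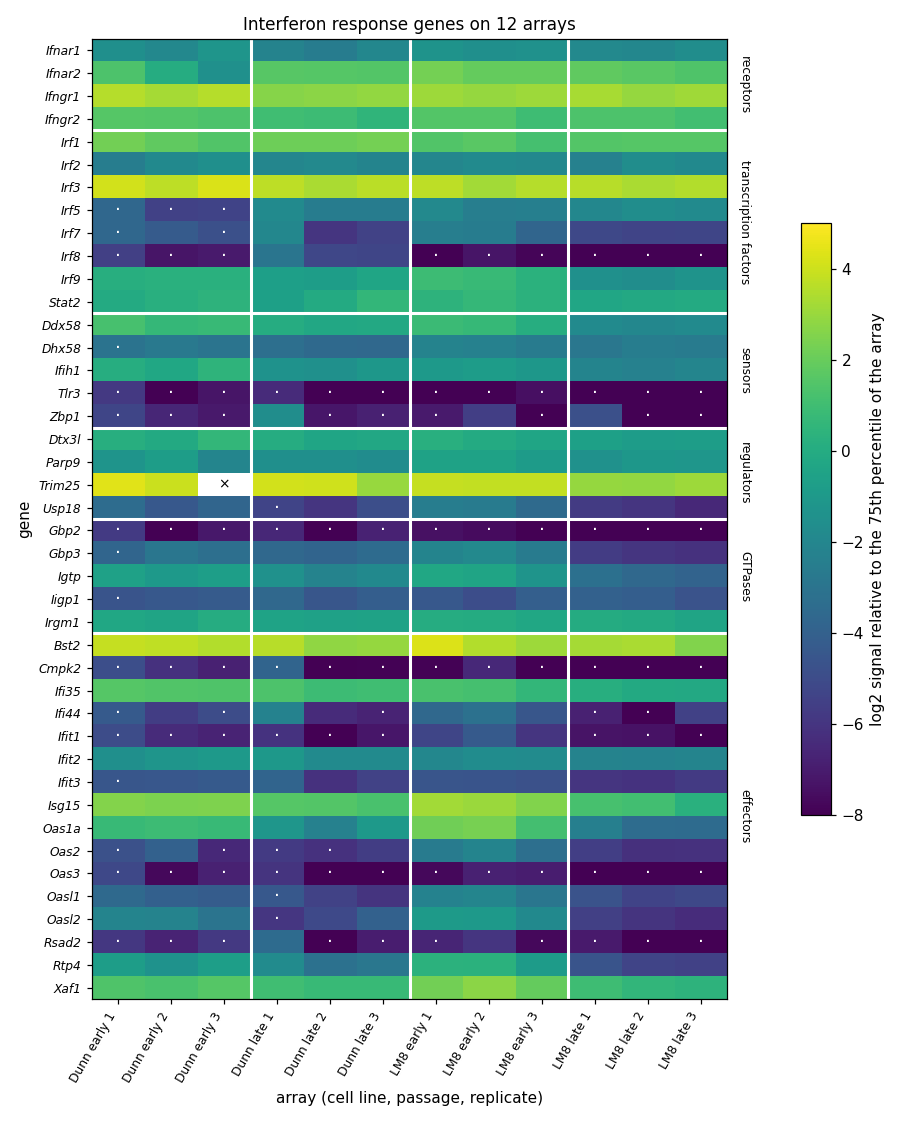
Level of the 42 members (rows, by role) on the 12 arrays (columns), as log2 signal relative to the 75th percentile of the array, with white dots where a probe was not well above background and a cross where its spot was left out as an outlier. The columns of late LM8 cells are darker than those of early LM8 cells for the oligoadenylate synthetase genes, Rtp4, Usp18, Gbp3 and Igtp, while the 4 receptors at the top keep their shade.

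The largest differences accompanied the passaging of LM8 cells. In late versus early LM8 cells, 15 of the 42 members were lower and 0 higher at over 2-fold and an adjusted p under 0.05 in limma, with a signal well above background on every array of the brighter group. Of all 20144 genes tested, 1.54% were lower and 0.943% higher by the same rule. At over 2-fold and an unadjusted p under 0.05, the level of significance used for these lines in the study, 18 members were lower and 0 higher, against 2.22% and 2.11% of all genes. The median difference of the members was -0.97, beside -0.16 for all genes, and 36 of the 42 were below 0, as were 65.53% of all genes. The 23 members well above background throughout had a median of -0.63, beside -0.06 for the 9369 such genes. The early and late arrays of these 15 did not overlap, so each was also lower within each of the 3 slides. The 15 were picked by these same values, so this adds no support.

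By role, 8 of 16 effectors, 2 of 5 sensors, 1 of 4 regulators of ubiquitin and Isg15 conjugation, 2 of 5 GTPases and 2 of 8 transcription factors were lower in late LM8 cells by the adjusted p, and 0 of 4 receptors. The medians of these roles were -1.91, -0.56, -0.77, -0.66, -0.31 and -0.24.

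Both receptor pairs stayed within 2-fold of their early level. Ifngr1, which binds interferon gamma, lay at 3.11, 2.94 and 3.09 in early and at 3.30, 2.94 and 3.17 in late LM8 cells. Its groups overlapped, and the difference was 0.09 ± 0.20 (limma standard error, adjusted p = 0.821). Ifngr2, the signalling subunit, lay at 1.51, 1.5 and 0.98 in early and at 1.37, 1.35 and 1.05 in late cells, also with overlap. Ifnar1, a subunit of the type I receptor, lay at -1.31, -1.51 and -1.41 in early and at -1.86, -1.99 and -1.64 in late cells. The late arrays were the lower ones throughout, but the difference of -0.42 ± 0.19 did not pass (adjusted p = 0.329 in limma), and the other 2 probes of the gene gave -0.07 each. Ifnar2, its partner, lay at 2.27, 1.93 and 1.91 in early and at 1.83, 1.68 and 1.40 in late cells, a difference of -0.40 ± 0.22 (adjusted p = 0.334 in limma).

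Among the transcription factors, Irf9 and Irf7 were lower in late LM8 cells. Irf9, the DNA-binding part of the complex that type I interferon activates, lay at 0.89, 0.77 and 0.32 in early and at -1.49, -1.65 and -1.31 in late cells. It fell by 2.14 ± 0.23 on the log2 scale, or 4.41-fold (adjusted p = 0.00524 in limma). Irf7, which drives interferon genes and is itself induced by interferon, lay at -2.42, -2.52 and -3.78 in early and at -5.18, -5.35 and -5.26 in late cells. The fall was 5.11-fold (adjusted p = 0.0277), and it did not pass with the slide as a replicate block (adjusted p = 0.0838 in limma; 0.000644 to 0.655 over 17 alternatives, 11 of them not past the threshold). Stat2, the STAT partner of Irf9, lay at 0.40, 0.65 and 0.37 in early and at -0.29, -0.13 and -0.04 in late cells. All late arrays were below the early ones, but the difference of -0.63 ± 0.19 was under 2-fold and did not pass (adjusted p = 0.229 in limma). Irf3, which sensors activate without new synthesis, lay at 3.69, 3.18 and 3.54 in early and at 3.59, 3.35 and 3.48 in late cells. Here the groups overlapped, and the difference was 0.01 ± 0.22. Irf1, Irf2 and Irf5 differed by 0.11, 0.02 and 0.46, and Irf8 was not well above background on any LM8 array, at -8.10, -7.28 and -7.80 on the early ones.

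Of the sensors, Ddx58 and Ifih1, both cytoplasmic detectors of viral RNA, were lower. Ddx58 lay at 0.88, 0.69 and 0.09 in early and at -1.77, -1.98 and -1.79 in late LM8 cells. The fall was 2.40 ± 0.26 on the log2 scale, or 5.29-fold (adjusted p = 0.00524 in limma), and a second probe, well above background on 1 late array, gave a difference of -1.81 (adjusted p = 0.249). Ifih1 lay at -1.03, -0.82 and -1.13 in early and at -2.11, -2.28 and -2.09 in late cells, a narrow but complete separation of 2.25-fold (adjusted p = 0.0309). It missed the threshold in limma when any 1 of the 6 arrays was left out (adjusted p = 0.0554 to 0.134) and with the slide as a replicate block (adjusted p = 0.108). Over all 17 alternatives its adjusted p ranged from 0.00532 to 0.480. Dhx58, a relative of both, differed by -0.30 ± 0.21 with overlap.

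The effectors held the largest falls. Rtp4, an interferon-induced protein named for its part in receptor transport, lay at 0.36, 0.30 and -0.88 on the early arrays and at -4.62, -5.31 and -5.51 on the late ones. It fell by 5.08 ± 0.41 on the log2 scale, or 33.7-fold (adjusted p = 0.00157 in limma). In an ordinary t-test with pooled variance, run outside limma, Rtp4 missed the threshold (adjusted p = 0.0539). So did Irf9, Ddx58, Oas1a, Oas2, Oasl1, Usp18 and Igtp, with adjusted p of 0.0509 to 0.0882 in that t-test. Ifih1, Irf7, Isg15 and Xaf1 missed it as well, with adjusted p of 0.0526, 0.169, 0.149 and 0.148 in that t-test. The oligoadenylate synthetases make a messenger that activates RNA decay, and the related Oasl proteins bind RNA or its sensors. Oas1a lay at 2.20, 2.35 and 1.12 in early and at -2.40, -3.39 and -3.43 in late cells, 31.2-fold apart (adjusted p = 0.00214), and a second probe, well above background on 1 late array only, was also lower. Oasl2 lay at -0.92, -1.04 and -1.81 in early and at -5.56, -6.05 and -6.33 in late cells, 26.3-fold apart (adjusted p = 0.000967 in limma). In Rtp4, Oas1a and Oasl2 replicate 3 of the early cells was the dimmest early array, and it still lay more than 3 log2 units above the brightest late one.

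Oas2 fell 10.0-fold, from -2.60, -2.12 and -3.27 to -5.59, -6.21 and -6.16 (adjusted p = 0.00449 in limma). Oasl1, which binds Irf7 messenger RNA, fell 6.38-fold, from -2.25, -2.09 and -2.88 to -4.69, -5.38 and -5.17 (adjusted p = 0.00606 in limma). Oas3 was above background on no array. All 5 of these genes are on chromosome 5. Isg15, the ubiquitin-like modifier, lay at 3.22, 3.02 and 2.55 in early and at 1.21, 1.06 and 0.23 in late cells. Its fall was 4.28-fold (adjusted p = 0.0246 in limma), and a second probe gave 3.82-fold with an adjusted p of 0.0900. Without LM8_24 replicate 1 or 2, or LM8_91 replicate 2 or 3, the adjusted p of Isg15 was 0.0649 to 0.0949, and over all alternatives 0.000689 to 0.149.

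Xaf1, which opposes inhibitors of apoptosis, lay at 2.21, 2.72 and 1.93 in early and at 0.95, 0.56 and 0.39 in late LM8 cells. It fell 3.15-fold (adjusted p = 0.0331 in limma), and 4.03-fold by its second probe. Ifit3, of the family that binds foreign RNA, lay at -4.57, -4.63 and -4.78 in early and at -6.01, -6.08 and -5.81 in late cells, a fall of 2.48-fold with little spread (adjusted p = 0.0186 in limma). With the slide as a replicate block Xaf1 and Ifit3 missed the threshold (adjusted p = 0.0859 and 0.0821 in limma). Over the 17 alternatives the adjusted p of Xaf1 ranged from 0.00199 to 0.278 and that of Ifit3 from 0.00239 to 0.620. The other members of that family gave different values. Ifit1 was not well above background on any late LM8 array and at least 3.21-fold lower (adjusted p = 0.0725 in limma), whereas Ifit2, well above background on all arrays, differed by -0.40 ± 0.19 (adjusted p = 0.329). Ifi44 and Ifi35 were 8.16-fold and 2.07-fold lower with adjusted p of 0.0960 and 0.109 in limma, and Ifi44 was above background on 1 late array only. Bst2, which tethers virus particles to the cell surface, lay at 4.32, 3.48 and 3.09 in early and at 3.23, 3.36 and 2.53 in late cells, with overlap.

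Of the regulators, Usp18, which removes Isg15 from proteins and damps signalling at the type I receptor, lay at -2.50, -2.57 and -3.51 in early and at -5.75, -5.99 and -6.49 in late LM8 cells. It fell by 3.22 ± 0.34 on the log2 scale, or 9.32-fold (adjusted p = 0.00524 in limma). Trim25, a ubiquitin ligase that acts on Ddx58, differed by -0.87 ± 0.18, and Parp9 and its partner Dtx3l by -0.60 ± 0.21 and -0.67 ± 0.22. In these 3 genes every late array was below every early one, without passing the rule.

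The GTPases split. Gbp3, a guanylate-binding protein, lay at -2.12, -1.88 and -2.58 in early and at -5.71, -5.98 and -6.14 in late LM8 cells. It fell by 3.75 ± 0.25 on the log2 scale, or 13.5-fold (adjusted p = 0.000943 in limma). Igtp, an immunity-related GTPase that acts at parasite vacuoles, lay at -0.28, -0.40 and -1.29 in early and at -3.22, -3.62 and -3.88 in late cells, 7.55-fold apart (adjusted p = 0.00658 in limma). By contrast, Irgm1, which regulates such GTPases and lies on chromosome 11 like Igtp, was at 0.06, 0.00 and -0.25 in early and at 0.01, -0.12 and -0.43 in late cells. Iigp1 differed by 0.23 ± 0.31 by its brighter probe, while its second probe, not well above background in either group, gave -1.84, so the probes disagreed in sign. Gbp2 was above background on no array.

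**Figure D2:**
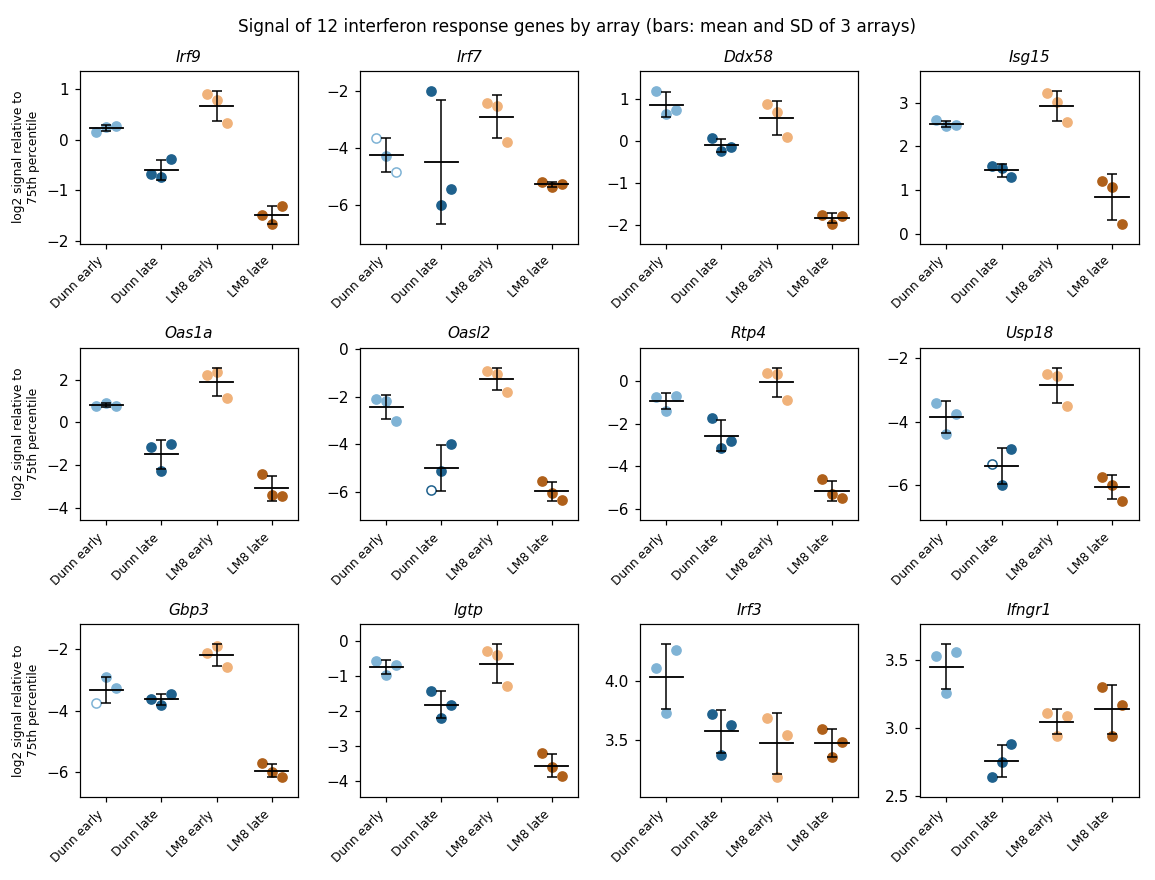
Level of 12 members on each array, as log2 signal relative to the 75th percentile of the array, each panel with its own axis, open circles for probes not well above background, and bars for the mean and SD of 3 arrays. In the first 10 panels the 3 late LM8 arrays lie below the 3 early ones, while those of Irf3 and Ifngr1 overlap.

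In Dunn cells 36 of the 42 members had a difference below 0 between late and early cells, as did 62.65% of all genes. In the deposited table without scaling 12 members were below 0. In late versus early Dunn cells 0 members were called at an adjusted p under 0.05, where 0% of 20130 genes were higher and 0.00497% lower by that rule. At over 2-fold and an unadjusted p under 0.05 in limma, 8 members were lower and 2 higher, against 1.78% and 1.62% of all genes. In the deposited table without scaling, 2 were lower and 4 higher. The median of the members was -0.56, beside -0.19 for all genes. Left out in turn, the arrays gave 5 to 10 members at this level, with 10 without replicate 1 of the late cells.

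The 8 lower members were Oasl2, Oas1a, Rtp4, Usp18, Ifih1, Oasl1, Igtp and Isg15, all of which were also lower in late LM8 cells by the adjusted p. Oas1a lay at 0.77, 0.90 and 0.75 in early and at -1.16, -2.27 and -1.03 in late Dunn cells, a 4.90-fold difference (adjusted p = 0.482 in limma). Oasl2 lay at -2.11, -2.20 and -3.02 in early and at -5.92, -5.14 and -3.98 in late cells, 5.94-fold apart (adjusted p = 0.671). Rtp4 lay at -0.74, -1.39 and -0.71 in early and at -1.75, -3.15 and -2.83 in late cells, 3.09-fold apart (adjusted p = 0.882 in limma). Each of the 3 showed complete separation of its arrays by these probes. So did Isg15, at 2.60, 2.46 and 2.49 in early and 1.55, 1.51 and 1.29 in late cells. The lower members were picked by these same values, so the separation adds no support. The second probes of Oas1a and Isg15 gave -1.46 ± 0.60 and -0.68 ± 0.39, both with overlap.

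The other 4 were also separate, which adds no support for the same reason. Ifih1 lay at 0.11, -0.28 and 0.45 in early and at -1.36, -1.50 and -1.13 in late Dunn cells, 2.68-fold apart. Usp18 lay at -3.40, -4.40 and -3.77 against -5.33, -6.00 and -4.87, or 2.91-fold. For Usp18 and Oasl1, and for Oasl2 above, 2 of the 3 late arrays were well above background. Oasl1 lay at -3.55, -4.03 and -4.24 against -4.44, -5.43 and -6.05, or 2.57-fold, and Igtp at -0.57, -0.97 and -0.70 against -1.43, -2.21 and -1.85, or 2.12-fold.

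Irf5 and Irf8, transcription factors of myeloid and lymphoid cells, were the 2 higher members. Irf5 lay at -3.68, -5.48 and -5.40 in early Dunn cells, where it was not well above background, and at -1.78, -2.56 and -2.56 in late ones, at least 5.41-fold higher (adjusted p = 0.697 in limma). Irf8 was likewise not well above background in early Dunn cells, at -5.54, -7.24 and -7.07, and lay at -2.97, -5.21 and -5.28 in late ones, at least 1.38-fold higher. Its highest value was that of replicate 1. On that array Irf7, at -3.65, -4.28 and -4.83 in early Dunn cells, was at -1.99 against -6.01 and -5.43, Ifi44 at -2.25 against -6.39 and -6.68, Rsad2 at -3.47 against -8.86 and -6.94, and Zbp1 at -1.61 against -7.20 and -6.82. The macrophage marker Lyz2 was at -1.85 there, against -5.50 and -5.14, and Ptprc at -4.29 against -6.50 and -7.83 without being well above background. The 4 members above background on no array were also higher on it. Tlr3 was at -6.38 against -8.67 and -8.43, and Oas3 at -6.04 against -8.27 and -8.08. Gbp2 was at -6.55 against -8.29 and -6.76, and Cmpk2 at -3.8 against -8.28 and -7.93. Other leukocyte markers did not stand out there, with Csf1r at -3.21 against -3.14 and -2.07, Itgam at 2.61 against 2.24 and 3.31, and Cd3e at -2.54 against -2.45 and -2.64. Ifnb1, the type I interferon beta, was at -4.08 on that array against -8.92 and -8.58, and of the 3 late Dunn arrays 1 had it well above background. The part of these transcripts, or of the higher signal of probes at background, in the values of the members on that array was not tested.

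The receptors, Irf9, Stat2 and Irf3 did not pass by either rule in Dunn cells. Ifngr1 lay at 3.53, 3.26 and 3.56 in early and at 2.64, 2.75 and 2.88 in late cells, and Ifngr2 at 1.57, 1.52 and 1.36 against 1.00, 0.92 and 0.50. Ifnar1 lay at -1.54, -1.93 and -1.22 in early and at -2.20, -2.55 and -2.0 in late cells. These 3 were separate but within 2-fold, with differences of -0.69, -0.68 and -0.68, and turned positive in the deposited table without scaling (0.12, 0.13 and 0.12). The other 2 probes of Ifnar1 gave -0.30 ± 0.35 and 0.74 ± 0.58, both with overlap. Ifnar2 spread widely in early Dunn cells, at 1.38, 0.06 and -1.47, and was at 1.62, 1.57 and 1.54 in late ones.

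Irf9 lay at 0.15, 0.25 and 0.26 in early and at -0.67, -0.74 and -0.38 in late Dunn cells, a difference of -0.82 ± 0.28 (adjusted p = 0.952 in limma). Stat2 lay at -0.06, 0.18 and 0.40 against -0.59, -0.07 and 0.60, with overlap. Irf3 lay at 4.11, 3.73 and 4.27 in early and at 3.72, 3.37 and 3.63 in late Dunn cells, a difference of -0.46 ± 0.31. Gbp3, at -3.75, -2.91 and -3.26 against -3.61, -3.81 and -3.44, also overlapped. Ddx58, at 1.2, 0.64 and 0.74 in early and 0.07, -0.23 and -0.14 in late Dunn cells, differed by -0.96 ± 0.31, just under 2-fold. Xaf1 lay at 1.43, 1.25 and 1.58 in early and at 1.03, 0.77 and 0.75 in late cells, separate but within 2-fold. Oas2 lay at -4.76, -3.95 and -6.49 against -5.77, -6.13 and -5.66, with 1 array of each group well above background, and Ifit3 at -4.50, -4.48 and -4.32 against -3.79, -6.15 and -5.43, both with overlap.

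**Figure D3:**
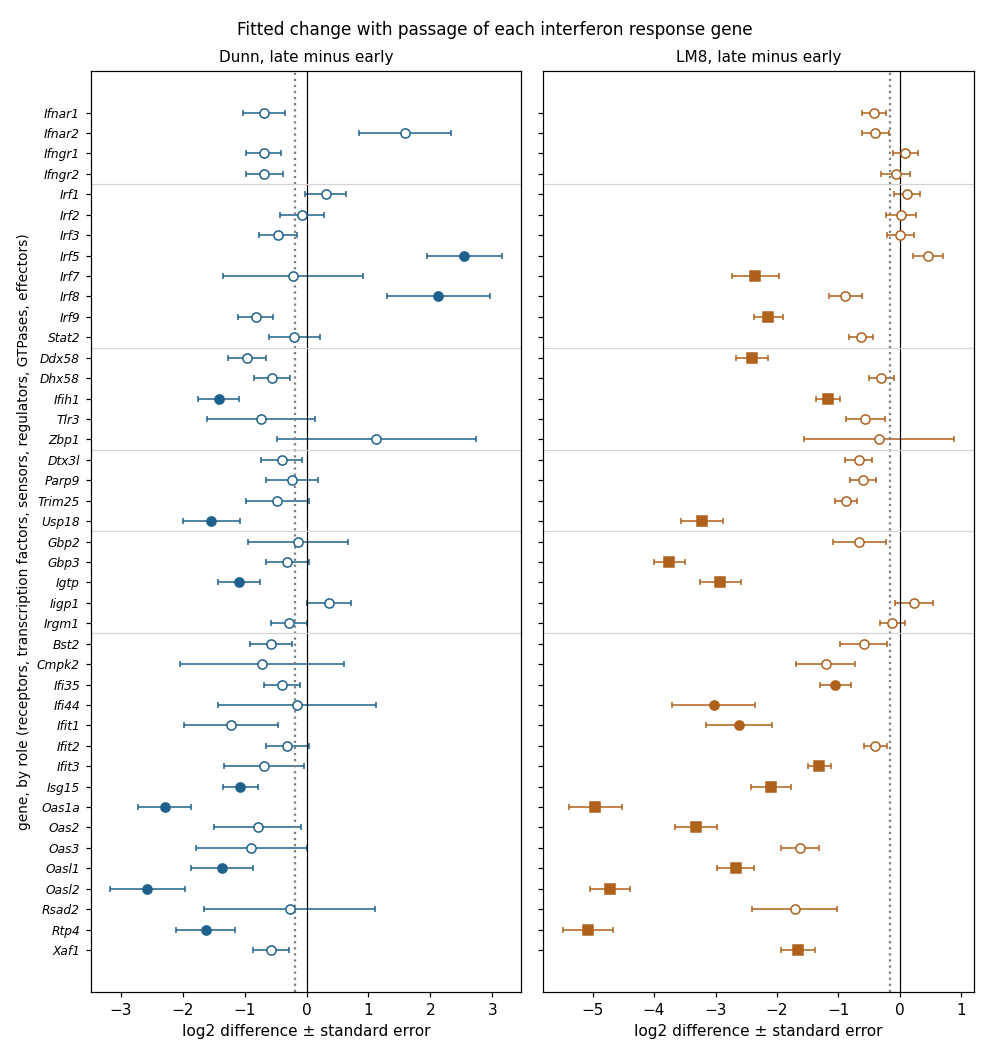
Log2 difference between late and early cells for each of the 42 members, by role, in Dunn (left) and LM8 cells (right), with limma standard errors, a dotted line at the median of all genes, squares for an adjusted p under 0.05 with over 2-fold, filled circles for an unadjusted p under 0.05 with over 2-fold, and open circles for the rest. The 15 squares all lie in the LM8 panel and left of 0, and the horizontal axes of the panels differ.

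Late minus early differences of the 2 lines come from different arrays and share no group, though they share slides. Of the 42 members, 33 were lower in late cells of both lines (78.6%), compared with 47.6% of all genes, and over the members the differences had a Pearson r of 0.63 and a Spearman rho of 0.63. Over all genes these were 0.24 and 0.30. In the deposited table without scaling, where the median of all genes was 0.62 in Dunn and 0.19 in LM8 cells, 12 members were lower in Dunn and 32 in LM8 cells. Members are not independent of each other, and these values are descriptions without a test.

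**Figure D4:**
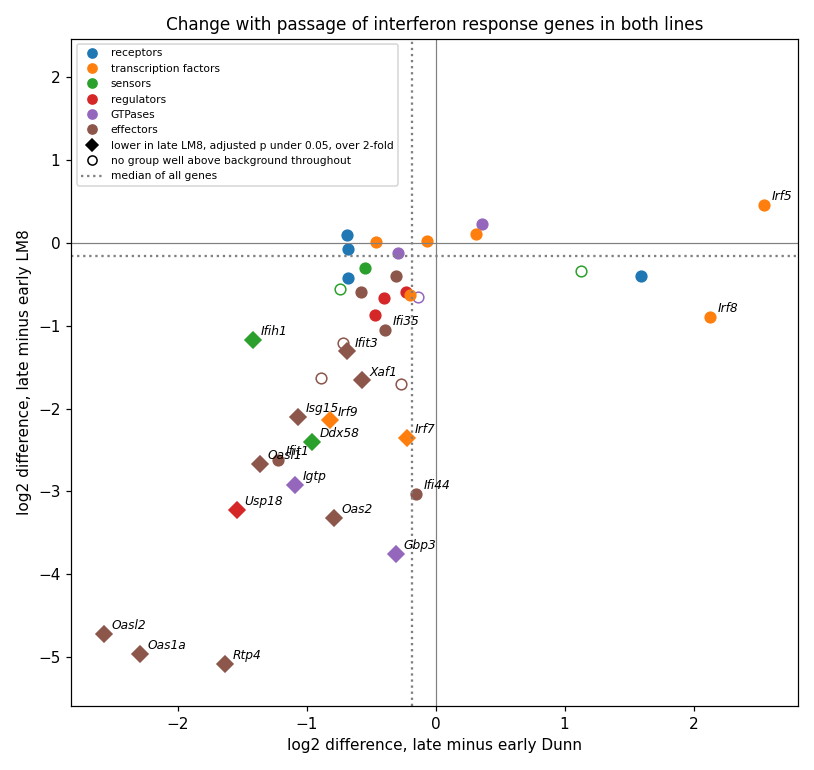
Log2 difference between late and early cells of the 42 members in Dunn (horizontal) and LM8 cells (vertical), coloured by role, with diamonds for the 15 members lower in late LM8 cells by the adjusted p, open circles for members of which no group was well above background throughout, and dotted lines at the medians of all genes. Oasl2, Oas1a and Rtp4 lie farthest to the lower left, and Irf5 and Irf8 farthest to the right.

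The difference between the late minus early changes of LM8 and Dunn cells was fitted as an interaction term on the 12 arrays. By the adjusted p, 1 member, Gbp3, changed more steeply downwards in LM8 cells and 0 did so upwards, where 0.273% of all genes were lower and 0.219% higher. Gbp3 fell 13.5-fold in LM8 cells and by 1.24-fold in Dunn cells, an interaction of -3.44 ± 0.41 (adjusted p = 0.00697 in limma). At the unadjusted level, 14 members had a term below 0 and 0 above it, against 2.31% and 2.08% of all genes. Among them were Rtp4 with -3.45 ± 0.66 (adjusted p = 0.0821 in limma) and Oas1a with -2.67 ± 0.63 (adjusted p = 0.193). Igtp with -1.83 ± 0.48 and Irf9 with -1.32 ± 0.32 were others. The 14 also held Irf5, Irf8 and Ifnar2, whose differences in Dunn cells were above 0, at 2.55, 2.13 and 1.59. In LM8 cells these 3 differed by 0.46, -0.89 and -0.40, with Irf8 not well above background. For the remaining members that fell in LM8 cells, a difference between the lines was not shown.

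The lines were also compared with each other at each passage, and these comparisons share their groups with those above. In early LM8 versus early Dunn cells 0 members passed the adjusted p, where 1.39% of all genes were higher and 1.34% lower. At the unadjusted level 8 members were higher (Irf5, Oas2, Ifnar2, Oasl1, Irf7, Oasl2, Gbp3 and Oas1a) and 1, Ifih1, lower, against 5.87% and 4.52% of all genes. In the deposited table without scaling this split was 25 higher and 0 lower. The median of the members was 0.05, beside -0.55 for all genes. Irf5 was at least 5.63-fold and Oasl1 2.89-fold higher (adjusted p = 0.0767 and 0.0966 in limma). Oas2 differed by 2.41 ± 0.70 (adjusted p = 0.155 in limma) with 1 of 3 early Dunn arrays well above background. Under normexp, Oas2 and Oasl1 were at -0.24 and -0.08. Ifnar2 was 4.13-fold higher, with the early Dunn arrays spread as given above.

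In late LM8 versus late Dunn cells, 3 members, Ddx58, Gbp3 and Irf8, were lower and 0 higher by the adjusted p, where 1.88% of all genes were lower and 1.24% higher. Ddx58 was 3.35-fold higher in late Dunn than in late LM8 cells (adjusted p = 0.0219 in limma), and Gbp3 was 5.02-fold above them (adjusted p = 0.0123). Irf8 lay at -8.44, -8.87 and -8.55 in late LM8 cells, not well above background, and was at least 5.24-fold lower there than in late Dunn cells (adjusted p = 0.0487). With the slide as a replicate block 0 members passed, with adjusted p of 0.129, 0.114 and 0.134 for the 3 genes (up to 0.256, 0.338 and 0.255 over 17 alternatives), and without late Dunn replicate 1 the count was 5. Without late Dunn replicate 3, or without any 1 late LM8 array, 0 members passed, and without late Dunn replicate 2 the count was 1. At the unadjusted level 7 members were lower (these 3, Rtp4, Igtp, Oas1a and Ifi35) and 0 higher, against 4.58% and 5.24% of all genes. In the deposited table without scaling 3 were lower and 7 higher. The median of the members was -0.66, beside -0.48 for all genes.

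Beyond these members, 45 further genes of the pathway had been listed, of which 41 were matched. In late versus early LM8 cells 6 of them were lower and 0 higher by the adjusted p, against 1.54% and 0.943% of all genes. Parp14, an ADP-ribosyltransferase, differed by -3.37 ± 0.32, and Lgals3bp, a secreted glycoprotein, by -3.24 ± 0.29. The GTPases Irgm2 and Ifi47 differed by -2.84 ± 0.32 and -1.56 ± 0.23, Trim30a by -2.03 ± 0.35, and Nlrc5, the activator of MHC class I genes, by -1.87 ± 0.33. At the unadjusted level 10 were lower and 2 higher, against 2.22% and 2.11% of all genes. In Dunn cells 0 passed the adjusted p and 1 was lower at the unadjusted level, a share near the 1.78% of all genes. The interaction passed for Lgals3bp, with -2.80 ± 0.44 (adjusted p = 0.0287 in limma). Lgals3bp was at 4.51, 4.03 and 4.46 in early Dunn, 4.17, 3.51 and 4.01 in late Dunn, 1.52, 1.08 and 0.56 in early LM8 and -1.91, -2.23 and -2.41 in late LM8 cells, with no overlap between the lines.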

How the data were processed

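Total RNA was labelled with Cy3 and hybridised to 12 Agilent mouse 4x44K arrays, 3 for each of 4 groups, on 3 slides that each held 1 array of every group. The labels name a column kit for the RNA and the study's methods a phenol reagent, and the labels call the source human although organism and array are mouse. The authors deposited the output of Agilent Feature Extraction 10.7.3 for each array. Its processed signal is a spot intensity after background subtraction, not scaled between arrays. The authors also deposited a table of all arrays that holds the same intensity, rounded and unscaled. One early Dunn file holds rounded values.

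The 43020 spots without controls held 39429 probes, and a probe's value is the mean of its spots that carried no outlier flag. Each log2 signal was set relative to the 75th percentile of all spots of its array. Probe accessions were matched to RefSeq on GRCm38.p6 (26581 probes, 67.4%, 20144 genes), and a gene is shown by its probe with the highest mean log2 signal. Each 2-group test used limma 3.58.1 (R 4.3.3) with only the arrays concerned, and the interaction used every array, with Benjamini-Hochberg adjustment over all probes. Calls needed over 2-fold, an adjusted (or, as stated, unadjusted) p under 0.05 and a signal well above background on every measured array of the brighter group. Where the dimmer group was at background, a fold is given as "at least", against the lowest signal well above background on the array. The steps were tested on simulated data. The precision is limited by 3 arrays a group. Plots used matplotlib 3.10.9.

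Values on every array are given for the 16 members with an adjusted p under 0.05 in some comparison, the receptors, Irf9, Stat2 and Irf3, and a few others chosen after their values were seen. The members, lists and tests were chosen with earlier results of these data known. Alternatives were quantile normalization and normexp with an offset of 50 (on the median spot signal, as no mean signal was at hand). The deposited table, a floor, a filter on dim probes and other rules for probes were used as well. Further ones were 1 fit over all arrays, an ordinary t-test with pooled variance, the slide as a replicate block, and each array left out. A 75th percentile over spots not flagged was added after seeing the data.

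Replicate numbers mark the slide in the labels and array headers. Deviations from group means correlated from -0.23 to 0.684 over the 18 same-number pairs, and 12 pairs were over 0.1. Human lines and copy number arrays were not analysed here. One leukocyte marker counted in its list is not reported here by itself.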

Additional observations from a re-analysis of the deposited data

Results flagged for a closer look

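Gbp3 differed between the lines in its change with passage. The late minus early difference was -3.75 in LM8 and -0.31 in Dunn cells, and the interaction was -3.44 (adjusted p = 0.00697 in limma). It kept an adjusted p under 0.05 with any 1 array left out and missed it under normexp (-1.22, adjusted p = 0.665), quantile normalization (-2.20, adjusted p = 0.359) and in the deposited table (-3.90, adjusted p = 0.0505).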

How the results depend on the processing

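The count of members lower in late LM8 cells was 15, and it was 10 to 18 under every alternative except the ordinary t-test, which gave 3. All were lower. Without 1 array at a time it was 10 to 14, and with the replicate block 12, of which 11 were among the 15. In Dunn cells the count was 0 throughout, but 4 with 1 fit over all 12 arrays. For early LM8 versus early Dunn cells it was 0, with 2 under quantile normalization, 3 when dim probes were filtered, 13 in the deposited table and 4 in the fit over all arrays. Without 1 array at a time it was 0 to 5, highest without Dunn_25 replicate 2, and 2 without Dunn_25 replicate 1. For late LM8 versus late Dunn cells, 3 became 6 under quantile normalization, in the fit over all arrays and over probes well above background, 5 with the percentile of spots not flagged, 1 under normexp or with the mean of a gene's probes, and 0 in the deposited table or with the replicate block, with 0 to 5 when 1 array was left out. The interaction gave 1, with 2 under quantile normalization or with the replicate block, 0 under normexp and 1 in the deposited table. It gave 3 over probes well above background, and 1 to 2 when 1 array was left out. Neither the 2 under quantile normalization nor the 1 in the deposited table included Gbp3. With the replicate block Ifih1, Ifit3, Irf7 and Xaf1 missed the threshold in LM8 cells. The cause of these shifts was not tested, except that a filter leaves fewer probes to adjust over.

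The deposited table, which is not scaled, moved the median of all genes from -0.16 to 0.19 in LM8 and from -0.19 to 0.62 in Dunn cells, and that of the members from -0.97 to -0.62 and from -0.56 to 0.23. Between the lines the median of all genes moved from -0.55 to 0.70 early and from -0.48 to 0.32 late. Some signs turned. In that table, Ifnar1, Ifngr1, Ifngr2, Irf3 and Stat2 were at 0.12, 0.12, 0.13, 0.35 and 0.62 in late versus early Dunn cells, Ifngr2 at 0.28 in LM8 cells, and Ifih1 at 0.17 between the early lines. Under normexp Irf8 was at -0.68 in Dunn cells, and Gbp3, Irf7, Oas2 and Oasl1 at -0.10, -0.47, -0.24 and -0.08 between the early lines. Irf3 in LM8 cells was at -0.02 under quantile normalization, at -0.03 with the percentile of spots not flagged, and at -0.14 and -0.05 without LM8_24 replicate 2 and LM8_91 replicate 1. Ifngr2 there ranged from -0.25 to 0.03 with 1 array left out, and Stat2 in Dunn cells from -0.51 to 0.09. Signal over background limits Cmpk2, Gbp2, Oas3 and Tlr3, for which no level can be given.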
